A study of Mus musculus with 4 samples.

Results

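Intermediate nuclei of the adult mouse stria vascularis (SV) were taken from a single-nucleus RNA-Seq (snRNA-Seq) library by 4 marker genes, Met, Pax3, Nrp2 and Pde1c. A barcode was kept with at least 200 genes, Malat1 at 5% or more of its unique molecular identifiers (UMIs, 1 for each captured RNA molecule), and a marker sum of at least 4 UMIs and 0.2% of UMIs. The sum also had to be at least 3 times that of 4 marginal genes (Lrp2, Kcnq1, Esrrb and Atp13a5) and of 4 basal genes (Cldn11, Tjp1, Col11a2 and Nr2f2). This gave 1274 of the 11057 barcodes of the library, or 11.5%, out of 14387 barcodes in the whole series. The same limits with the other marker sums gave 2900 marginal nuclei and 92 basal nuclei.

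Strial tissue came from CBA/J mice aged P30 (postnatal days), and was run as 3 captures of whole cells and 1 capture of nuclei. No genotype or treatment was compared. Every capture pooled tissue of several mice, so a capture was 1 sample, and the nuclei had no replicate. Whole cells were released by trypsin at warm temperature and nuclei by a mild detergent in the cold, so that preparation, capture and compartment cannot be told apart in any comparison of nuclei with cells. The nucleus matrix also has a longer gene list than those of the cells, so the gene annotation differed too and cannot be told apart from these.

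Intermediate cells are the pigmented, melanocyte-like cells in the middle layer of the SV. They descend from the neural crest, carry melanin-making enzymes, and hold the inward rectifier potassium channel Kcnj10 that is needed for the endocochlear potential. They are joined by gap junctions to the basal layer and interdigitate with marginal cells, which secrete potassium into the endolymph. A nucleus holds newly made and unspliced RNA, and RNAs retained there such as Malat1, whereas most messenger RNA being translated lies in the cytoplasm.

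The values that chose the nuclei are given as a description. At least 1 UMI of Met was present in 1231 of the 1274 nuclei, of Pde1c in 1104, of Nrp2 in 978 and of Pax3 in 771. All 4 genes were seen in 501 nuclei, 3 in 550, 2 in 207 and only 1 in 16. Just inside the limits lay 83 nuclei with a marker sum of 4 UMIs and 82 with a ratio between 3 and 4, and just outside lay 64 barcodes with a sum of 3 and 100 with a ratio between 2 and 3. The lowest Malat1 share of a member was 5.14%, and the highest of a barcode that failed on Malat1 alone was 4.91%, with 109 such barcodes.

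The nuclei were shallow. Intermediate nuclei held 2257235 UMIs in all, with a median of 1493.5 UMIs and 763 genes, Malat1 at a median of 26.7% of UMIs and mitochondrial transcripts at 1.69%. For comparison, 111, 370 and 358 intermediate cells were found in captures 1, 2 and 3 by the same marker limits, with Malat1 at 0.5% or more and the marker share taken over UMIs outside mitochondrial genes. Their median depth was 8746, 7163 and 6666.5 UMIs, of which 32.6%, 34.8% and 38.0% were mitochondrial. Levels below are CPM, that is UMIs summed over the nuclei or cells of a type and normalised to the sum's total outside mitochondrial genes, over the 27873 genes that both gene lists hold. Intervals given for nuclei cover counting error only.

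The nucleus library stood apart from the cell captures in other ways. Intermediate nuclei had 8 UMIs of Xist, expressed from the inactive X chromosome of females, and 958 UMIs of the Y-linked genes Ddx3y, Eif2s3y, Kdm5d and Uty. Intermediate cells had 238, 1409 and 1414 UMIs of Xist and 136, 213 and 182 of the Y-linked genes. The labels do not give the sex of the mice, and Xist shares its locus with the antisense Tsix, so sex and the counting of overlapping genes cannot be told apart. These genes were chosen after their values were seen. The library also shared 7, 26 and 32 barcodes with the cell captures, of which 1 was intermediate in both libraries.

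RNA of genes that mark other cell types was present in intermediate nuclei. Its part in the results was not tested, apart from an alternative that left out nuclei with 10% or more hemoglobin UMIs. That alternative called 219 genes higher and 204 lower than in both other types of nuclei (below). The counts were 219 and 205 with those nuclei kept. The 5 erythroid genes summed to 14347 CPM in intermediate nuclei, led by Hbb-bs at 6729 CPM, and to 9705 in marginal and 3856 in basal nuclei. In intermediate cells they summed to 277, 481 and 5402 CPM. Hemoglobin UMIs were spread thinly, at a median of 5 per nucleus, but 11 nuclei with 10% or more hemoglobin held 76.9% of them. The 4 genes of the rule, by comparison, summed to 5889 CPM. The 12 marginal genes summed to 3003 CPM, against 19311 in marginal nuclei, with Slc12a2 at 1830 CPM the most abundant. The 8 basal genes summed to 950 CPM, against 6901 in basal nuclei, with Gjb6 at 474 CPM the most abundant, a gene that intermediate cells hold too (1543, 1750 and 1412 CPM). The 5 Schwann genes reached 356 CPM and the B cell genes 207 CPM (mainly Ebf1), while macrophage genes reached 27.7, endothelial genes 25.3 and pericyte genes 47.7 CPM. Fibrocyte genes reached 115 CPM (Otos first), Reissner's membrane genes 81.8 (Meis1 first), spindle and root genes 51.1 (Anxa1 first), and neutrophil genes 190 (S100a8 first). Of 57 macrophage UMIs 37 were of Cx3cr1, with Csf1r and Cd68 at 0, and of 98 pericyte UMIs 96 were of Cspg4, with Pdgfrb and Rgs5 at 0. Intermediate cells of captures 1, 2 and 3 held more than nuclei of the marginal genes (3836, 4082 and 4468 CPM). This also held for the basal genes (2864, 3037 and 2601 CPM) and the Schwann genes (1177, 1330 and 1272 CPM). Pericyte genes in cells lay on both sides of the nuclei (56.0, 40.9 and 55.3 CPM). The other lists of this paragraph that mark other types were lower in every cell capture than in nuclei.

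Genes known from intermediate cells that took no part in the rule were high in these nuclei. Dct, the dopachrome tautomerase of melanin synthesis, was at 28683 CPM in intermediate nuclei, 1735 in marginal nuclei and 2608 in basal nuclei. Tyr, the tyrosinase that begins melanin synthesis, was at 4841 CPM (95% Poisson interval 4747 to 4937), against 115 and 75.2. Both genes separated the types by more than 10-fold, yet 62.5% of marginal nuclei thinned to 1000 UMIs still held a Dct UMI, so that presence of Dct alone did not mark a nucleus. Kcnj10 was at 855 CPM, against 124 in marginal and 180 in basal nuclei. Kcnj13, another inward rectifier, was at 679 CPM, against 41.8 and 75.2. The melanocyte genes Tyrp1 and Kit were all but absent, with 1 and 0 UMIs over the 1274 nuclei. The 14 intermediate genes outside the rule, with these among them, summed to 37440 CPM in nuclei and to 43004, 36862 and 32766 CPM in the 3 cell captures, and Dct made up most of the sum.

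**Figure D1:**
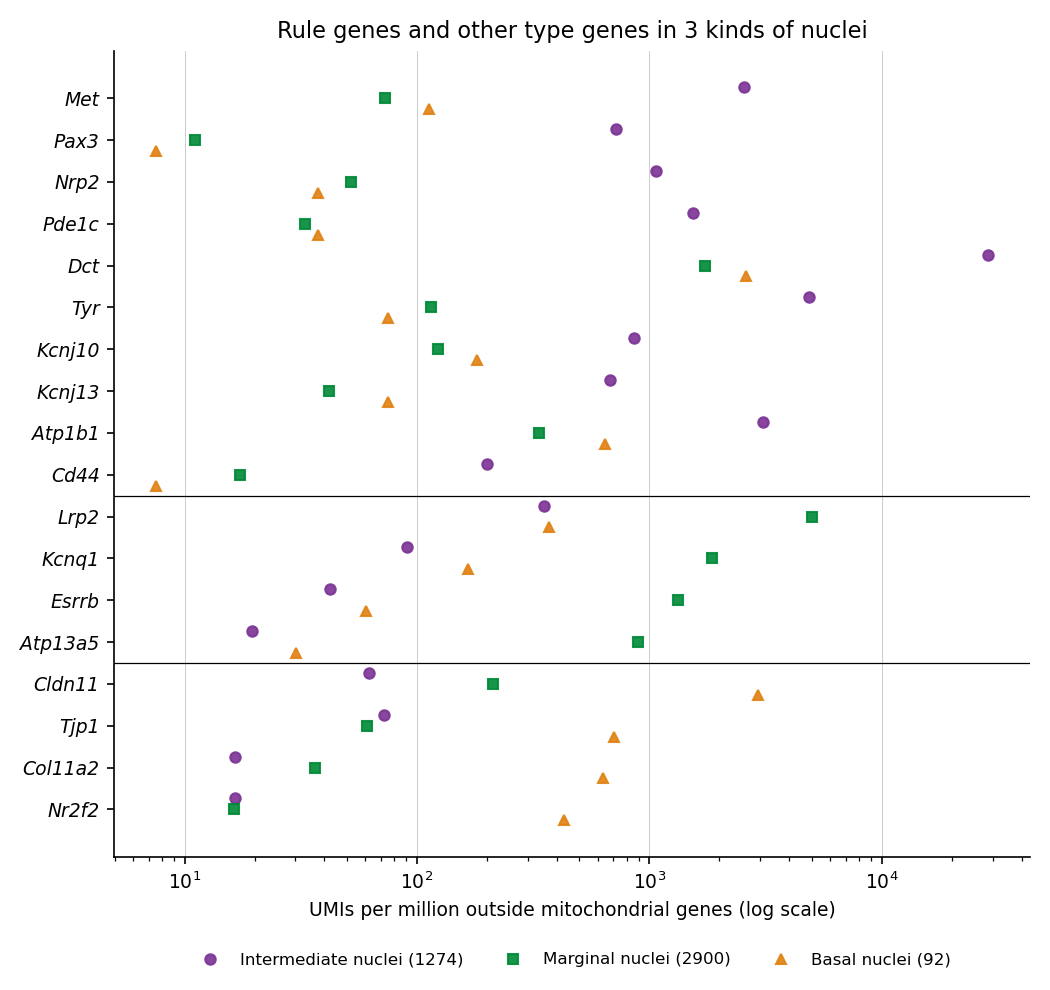
CPM on a log scale (x axis) of 18 genes in the sums of 1274 intermediate, 2900 marginal and 92 basal nuclei of 1 library, with lines between the intermediate, marginal and basal genes. Intermediate nuclei hold the highest point in the first 10 genes, of which the first 4 chose them, and marginal or basal nuclei in the 8 genes used to exclude them.

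The start regions of 15 intermediate genes were searched for the hexamers that melanocyte factors of the MITF family are known to bind, since Tyr and Dct are their textbook targets. The motif CATGTG (or CACATG on the other strand) lay within 250 bases before to 50 bases after a RefSeq start in 4 of 13 matched genes (Dct, Kcnj13, Nrp2 and Tyr), and CACGTG in 1, Met. Windows before the RefSeq start (GRCm38.p6) are shown 5′ to 3′ on the gene's strand, with the motif in capitals, at chr7:87493518-87493543 (minus strand) for Tyr, at chr14:118052381-118052406 and chr14:118052463-118052488 (minus strand) for Dct, at chr1:87394826-87394851 (minus strand) for Kcnj13 and at chr6:17463821-17463846 (plus strand) for Met.
Tyr: aaaagttagtCATGTGctttgcagaa
Dct, nearer window: cacttagggtCATGTGctaacaaaga
Dct, farther window: ttggctgggaCACATGagcccaataa
Kcnj13: cattcttttcCACATGatcagagcta
Met: gacgaacagaCACGTGctggggcggg
The motif of Tyr ended 15 bases before the start, those of Dct 144 and 226 bases, that of Kcnj13 106 bases and that of Met 120 bases. The RefSeq start of Met used here lies downstream of the first base of its GENCODE span, so its window lies within that span. CATGTG on either strand was found in the start regions of 4293 of 27025 genes (15.9%) and CACGTG in 8.09%. Among the 156 matched genes that separated intermediate nuclei from the other types (below), the shares were 19.9% and 6.41%. A match describes letters in a window, not binding.

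Genes that separated intermediate nuclei from marginal and basal nuclei were next described, with a gene called where its CPM was at least 4 times that of both other types and with no test, since there was 1 library. Of 10217 genes outside the rule with at least 50 UMIs over the types, 219 were called higher (2.14%) and 205 were at least 4 times lower than both (2.01%). Of the 219, 201 coded for protein, 15 were antisense genes and 3 were lincRNAs. The basal sum was small, since 1 UMI there was worth 7.52 CPM, and 155 of the 219 genes had at most 3 UMIs in it. For 167 of the 219 the counting interval lay above those of both other types, against 4.26% of all 10217 genes, but the 219 were chosen for a high ratio in the same counts.

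The separating genes with the largest ratio to the higher of the other types were led by Dlc1, a GTPase-activating protein, with 7709 UMIs in intermediate nuclei, 324 in marginal nuclei and 9 in basal nuclei. Its CPM was 3751 (interval 3668 to 3836), which was 52.3-fold above marginal nuclei. Dlc1 spans 385 kb of chromosome 8 (36567751 to 36953143, minus strand, GRCm38). Opcml, a cell adhesion molecule of the IgLON family, was at 1848 CPM, 35.5-fold above marginal nuclei, with 2 UMIs in basal nuclei. Bnc2, a zinc finger protein known for a part in pigmentation, was at 956 CPM, 31.8-fold above basal nuclei, where it had 4 UMIs, and 44.5-fold above marginal nuclei. These 3 genes are long, and each had a UMI in most intermediate nuclei.

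The other genes named by this ratio were Chsy3, a chondroitin sulfate synthase (486 CPM), Tyr, Ddx43, Mamdc2, Snhg7os, Klhl29, Cttnbp2 (497 CPM), Gm28960 and Ak5, an adenylate kinase (367 CPM). Ddx43, Mamdc2, Snhg7os and Gm28960 had between 142 and 237 UMIs in intermediate nuclei and none in basal nuclei, where 3 UMIs over the group stand as a floor, so their ratios over basal nuclei were at least 3.06, 4.04, 5.11 and 3.43. Snhg7os and Gm28960 are noncoding RNAs.

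Among genes low in intermediate nuclei, Cdh18, a cadherin, was at 50.6 CPM, against 5395 in marginal and 226 in basal nuclei. Alcam, an adhesion molecule, was at 129 CPM, against 3079 and 1030. Kcnq1ot1, the noncoding RNA antisense to Kcnq1, was at 143 CPM, against 1917 and 857, but it overlaps Kcnq1, a gene of the rule, and reads of both cannot be told apart without strand. Rnf152 and Adipor2 were also low, at 119 and 116 CPM against at least 951 and 616 CPM in the other types. These 5 genes were chosen after their values were seen, as those with many UMIs over the types.

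The direction was the same for most of these genes in whole cells, which were chosen by the same 12 genes. Of 176 separating genes with at least 50 UMIs in intermediate cells, 156 were higher in intermediate cells than in marginal and basal cells with no overlap over the 3 captures. This held for 813 of 7301 genes (11.1%) of the same kind. Among cells the limit of 50 UMIs was set on intermediate cells alone, the group then found higher. Marginal cells numbered 10, 50 and 31 and basal cells 14, 66 and 57 in captures 1, 2 and 3, so their sums were small. The shared direction is therefore a description. No fold was asked of the cells, where the median ratio of the 176 genes to the higher other type was 3.54, against 6.84 in the nuclei that chose them.

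Intermediate nuclei were then compared with intermediate cells, to ask which genes of this type are seen better in nuclei. UMIs were summed per capture, and 3 sums of cells and 1 of nuclei were fitted by the quasi-likelihood method of edgeR, with p-values adjusted after Benjamini and Hochberg. The single nucleus sum was assumed to vary as the cell sums do, and p-values carry that assumption. Of 11129 genes tested outside the rule, 3012 rose in nuclei (27.1%) and 2154 fell (19.4%) at an adjusted p under 0.05 and at least 2-fold. The median log2 fold change over all genes was 0.06. It was -0.09 without TMM scaling and 0.27 with Malat1 left out of the totals, so changes of that size depend on the scaling. Of the 219 separating genes, 112 were called higher and 18 lower in nuclei, which is a description, since these genes were chosen for a high level in the same nuclei.

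The marker genes themselves differed in how nuclei and cells showed them, as a description. Met, the receptor for hepatocyte growth factor, was at 2564 CPM in nuclei and at 1871, 1690 and 1687 CPM in captures 1, 2 and 3. Nrp2, a co-receptor for semaphorins, was at 1066 CPM in nuclei and at 1178, 1269 and 1248 CPM in cells. Pax3, a neural crest transcription factor, was at 720 CPM in nuclei and at 170, 232 and 211 CPM in cells. Pde1c, a calmodulin-dependent phosphodiesterase, was at 1539 CPM in nuclei and at 126, 149 and 169 CPM in cells. Nuclei were above the range of the captures for Met, Pax3 and Pde1c and below it for Nrp2. These genes chose the barcodes, and the minimum of 4 UMIs asks a larger share of a shallow nucleus than of a deeper cell. The median marker share of all UMIs was 0.520% in nuclei and 0.226%, 0.212% and 0.207% in cells. The differences in level therefore depend in part on the rule and are not read as a result. Met spans 110 kb of chromosome 6 (17463800 to 17573980), Nrp2 115 kb of chromosome 1 (62703285 to 62818695), Pax3 95.9 kb of chromosome 1 (78101267 to 78197134) and Pde1c 499 kb of chromosome 6 (56069804 to 56569103).

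Genes that both separated intermediate nuclei from the other nuclei and were higher in nuclei than in cells were led by genes with few or no UMIs in cells. Chsy3, Rapgef4os1, Gm12709, Gm42439, 5730522E02Rik, 4932411E22Rik, Terb1, Gm28960 and Sox5os4 had 0 UMIs in all 3 captures and between 135 and 998 UMIs in nuclei. With 3 UMIs over the captures as a floor, Chsy3 was at least 633-fold, Rapgef4os1 at least 609-fold and Gm28960 at least 101-fold higher in nuclei. Fbxl7, a substrate-binding F-box protein, was at 3033 CPM in nuclei (interval 2958 to 3109) and at 1.44, 0.584 and 1.33 CPM in the captures, each resting on 1 or 2 UMIs. Wdr17 and Ryr3, a calcium release channel, complete the list, with 256 and 127 CPM in nuclei and at most 1.44 CPM in any capture. Rapgef4os1, Gm12709, Gm42439, Gm28960 and Sox5os4 lie antisense to a coding gene (Rapgef4, Sgip1, Auts2, Nmnat2 and Sox5). Whether counting used strand is not given in the sources used here, so reads of these genes and of the partner gene cannot be told apart.

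For genes with UMIs in every capture the difference had a measured size, and these were picked after their values were seen. Prkg1, the cyclic GMP-dependent protein kinase, was at 1314 CPM in nuclei and at 2.87, 9.34 and 13.99 CPM in captures 1, 2 and 3 (log2 fold change 7.21 ± 0.21 SE, adjusted p = 2.68e-23). Npas3, a transcription factor, was at 519 CPM in nuclei and at 11.5, 15.8 and 20.0 CPM in cells (log2 fold change 5.13 ± 0.19). Nlgn1, a synaptic adhesion protein, was at 278 CPM in nuclei and at 11.5, 9.34 and 7.99 CPM in cells. For all 3 genes the nucleus value lay far outside the spread of the captures, and all 3 were also at least 4 times higher than in marginal and basal nuclei.

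Bnc2 was at 956 CPM in nuclei and at 76.2, 75.3 and 79.9 CPM in cells (log2 fold change 3.79 ± 0.15 SE, adjusted p = 5.79e-24). Opcml was at 1848 CPM in nuclei and at 162, 156 and 208 CPM in cells (3.55 ± 0.15 on the log2 scale). Dlc1 was at 3751 CPM in nuclei and at 364, 385 and 386 CPM in cells (3.47 ± 0.14 on the log2 scale). In all 3 genes the captures lay close together and the nuclei lay above them. Arhgef37, Fstl4, Gm26688, Sdk1, Ak5, Gm44701, Ptprt, Gpr158 and Negr1 were also higher in nuclei than in every capture, with log2 fold changes from 3.61 to 5.97, though some of them varied more among the captures (Arhgef37 was at 7.18, 2.33 and 2.00 CPM).

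**Figure D2:**
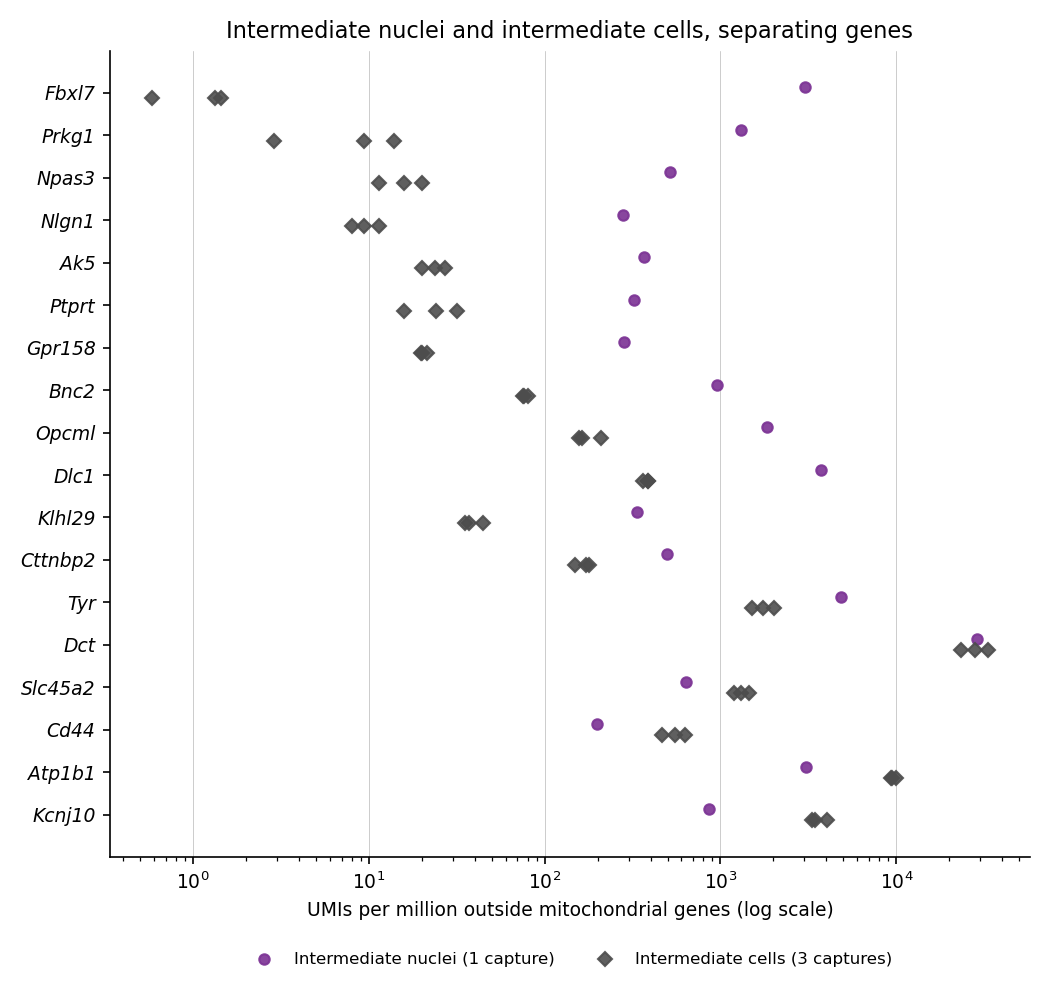
CPM on a log scale (x axis) of 18 genes that separated intermediate nuclei from other nuclei, in the nucleus sum (1 point) and in the sums of intermediate cells of captures 1, 2 and 3 (3 points). Nuclei lie above all captures from Fbxl7 to Tyr, within the range of the captures for Dct and below them from Slc45a2 to Kcnj10.

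Gene lists were described by role, and their counts are to be read against the 27.1% of all tested genes called higher and the 19.4% called lower. Of 12 tested genes of melanin synthesis and melanosomes, 2 rose in nuclei and none fell, whereas without TMM scaling 1 rose and 2 fell, and with Malat1 left out of the totals 4 rose. Tyr was at 4841 CPM in nuclei and at 1739, 1506 and 2014 CPM in cells (log2 fold change 1.63 ± 0.14 SE, adjusted p = 3.31e-13), and Gpr143, a melanosomal receptor, rose by 1.09. Dct was at 28683 CPM in nuclei and at 33183, 27847 and 23239 CPM in cells, within the range of the captures (0.19 ± 0.16 on the log2 scale). Slc45a2, a melanosomal transporter, was at 639 CPM and at 1453, 1191 and 1311 CPM, and its log2 value of -0.88 did not reach 2-fold. Slc45a2 was called lower without TMM scaling (-1.03). Genes of the same pathway thus lay on either side of the cells.

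Among 10 regulators of neural crest and melanocyte identity, 5 rose and 2 fell. Sox5 and Sox6, transcription factors of the SoxD family, were at 553 and 494 CPM in nuclei and at no more than 54.0 and 84.0 CPM in any capture. Tfap2a rose by 1.62, and Zeb2 and Zeb1 rose by 2.22 and 2.05, on the log2 scale. Mitf, the master regulator of melanocytes, was at 711 CPM in nuclei and at 484, 460 and 517 CPM in cells, a difference under 2-fold (0.71 ± 0.15). Sox10 was at 470 CPM and at 545, 374 and 391 CPM, so that nuclei lay within the range of the captures. Ednrb, the endothelin receptor of melanoblasts, was at 436 CPM and at 1036, 1063 and 1012 CPM (log2 fold change -1.09), and Bmyc at 173 CPM and at 424, 502 and 406 CPM (-1.20). Both were no longer lower by 2-fold when Malat1 was left out of the totals.

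Genes of MET signalling were mixed, with 2 of 14 higher and 3 lower, and 5 higher with Malat1 left out of the totals. The adaptor Gab1 rose by 2.13 on the log2 scale and the exchange factor Sos1 by 1.37. Cd44, a hyaluronan receptor that acts with Met, was at 200 CPM in nuclei and at 464, 552 and 631 CPM in cells (-1.30 ± 0.18), while Shc1 and Ptpn11 fell by 1.42 and 1.11. Of the most abundant further members, Pik3r1, Sos2 and Stat3 had log2 values between 0.41 and 0.85 and were not called.

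Among potassium transport genes, Kcnj10 was at 855 CPM in nuclei and at 4009, 3305 and 3441 CPM in cells (log2 fold change -1.91 ± 0.17 SE, adjusted p = 6.71e-13). Atp1b1, a beta subunit of the sodium pump, was at 3078 CPM in nuclei and at 9355, 9462 and 9950 CPM in cells (-1.48 ± 0.15). Kcnj13 was at 679 CPM and at 486, 572 and 448 CPM (0.59 ± 0.16) and was not called. Of 15 tested genes 5 rose and 4 fell, shares near those of all tested genes. Those that rose were Kcnb2, Kcnk2, Kcnq5, Kcnma1 and Kcnip4, with a median of 16.5 CPM in nuclei, and 4 of them were lower there than in marginal or basal nuclei, as were 65.5% of all genes called higher. Of the 5, 1 had a UMI in every capture, and Kcnb2 and Kcnk2 had none in cells and passed the filter through the nuclei alone. Atp1b3, another beta subunit of the sodium pump, also fell, by 1.29 on the log2 scale. Of the gap junction genes, Gjb2 (285 CPM in nuclei, 1197, 1154 and 1068 in cells) and Gjb6 (474 CPM in nuclei, 1543, 1750 and 1412 in cells) fell, and Gjc3 was not called (-0.38 on the log2 scale).

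Of 16 tested enzymes of cyclic nucleotide signalling and related kinases, 11 rose in nuclei and none fell. The median log2 fold change of the list was 2.24. Pde4d, a cyclic AMP phosphodiesterase, was at 2639 CPM in nuclei and at 106, 117 and 113 CPM in cells. Pde4b was at 1288 CPM and at 43.1, 26.3 and 36.6 CPM. Prkca, a protein kinase C, was at 507 CPM and at 121, 107 and 75.3 CPM. Pde7b rose by 5.39 and the adenylyl cyclases Adcy2 and Adcy8 by 2.72 and 3.32 on the log2 scale. Adcy2, Adcy8 and Prkg1 also separated intermediate from other nuclei, whereas Pde4d was about as high in marginal nuclei (2519 CPM). The sum over the list was 6820 CPM in nuclei and 440, 437 and 463 CPM in the captures.

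Of 33 tested synaptic and adhesion genes 32 were called higher and none lower in nuclei. Of the 32, 13 had a UMI in every capture, and the 16 genes without any UMI in cells passed the filter on low counts through the nuclei alone, so the count is a description. Of all tested genes, 85.3% with a span of 200 to 500 kb and 96.6% over 500 kb were called higher (below). Whether this list differs from other genes of like span was not tested. The median log2 fold change was 5.94, and 4.39 with those 16 genes set at their floor. Ncam1, the neural cell adhesion molecule, was at 852 CPM in nuclei and at 392, 446 and 408 CPM in cells. Cdh19, a cadherin of the neural crest lineage, was at 693 CPM and at 109, 141 and 157 CPM. Ptprm, a receptor phosphatase, was at 663 CPM and rose by 2.99 on the log2 scale. Of the 32 genes, 22 were lower in intermediate nuclei than in marginal or basal nuclei, near the share over all genes called higher, and the median level was 29.0 CPM. The 6 genes of the list that separated intermediate nuclei were Ncam1, Nlgn1, Cdh19, Ptprm, Ptprt and Opcml.

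Of 26 axon guidance genes 15 rose and 2, Plxna1 and Plxnb2, fell, and 13 of the 15 were lower than in marginal or basal nuclei. The number that fell was 1 with Malat1 left out of the totals, and 1 with cells held to 5% Malat1. Of the 15, 7 had a UMI in every capture, and 5 tested genes had none in cells and passed the filter through the nuclei alone. Robo1, a Slit receptor, was at 634 CPM in nuclei and at 60.3, 68.3 and 72.6 CPM in cells, and Efna5 at 301 CPM and at 44.5, 30.9 and 40.0 CPM. Sema6d was at 205 CPM and at 264, 229 and 318 CPM and was not called, and Sema6a rose by 1.68 on the log2 scale. Of 18 calcium genes 10 rose and 1, Atp2a2, fell, and 8 of the 10 were lower than in marginal or basal nuclei. Of the 10, 7 had a UMI in every capture, and 1 tested gene had none in cells and passed the filter through the nuclei alone. No calcium gene was called lower with Malat1 left out of the totals or with cells held to 5% Malat1. Camk2d was at 534 CPM in nuclei and at 234, 280 and 263 CPM in cells, and Trpm3 at 143 CPM and at 1.44, 3.50 and 2.66 CPM. The calcium release channel Itpr1 and the calcium pump Atp2b1 had log2 values of 0.05 and 0.35 and were not called.

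**Figure D3:**
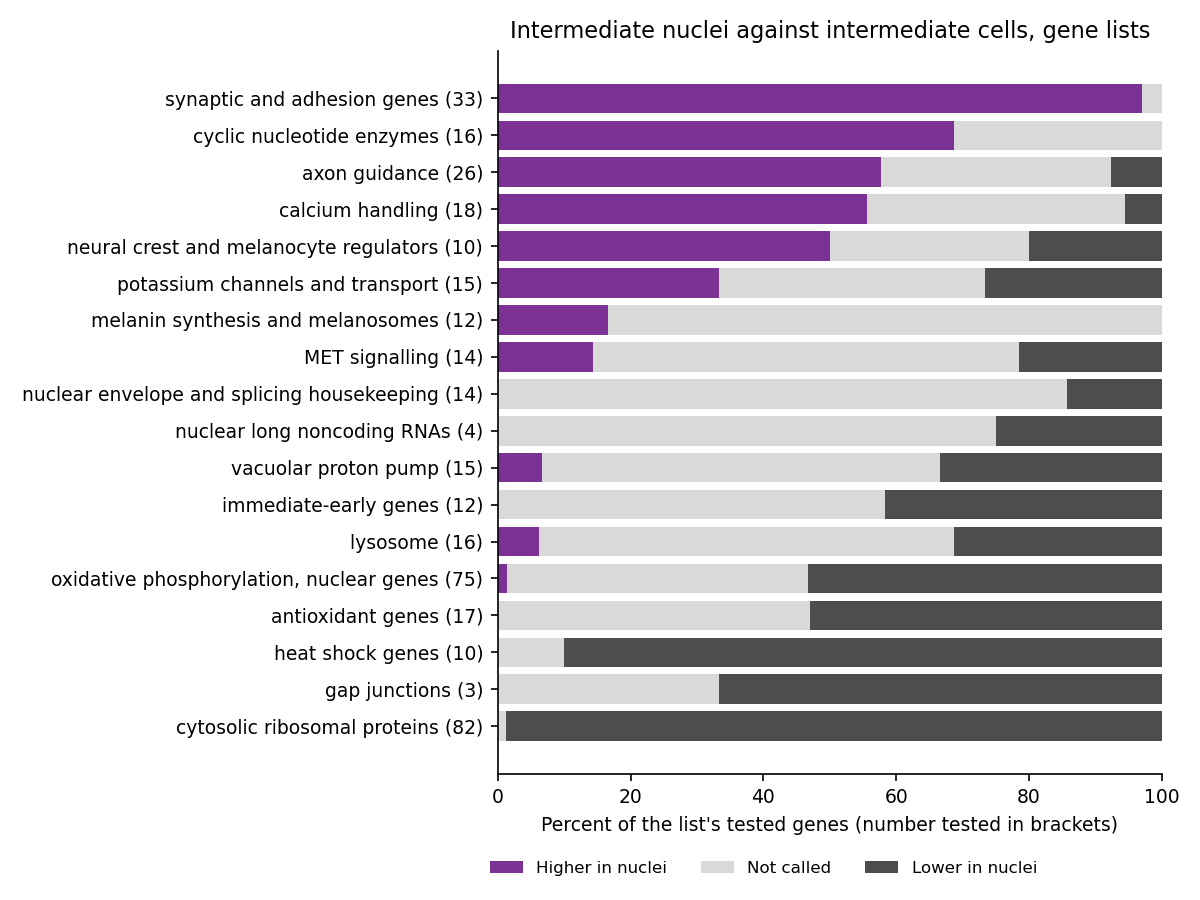
Percent of the tested genes of 18 lists (x axis) that were higher in intermediate nuclei than in intermediate cells, not called, or lower (stacked bars), in the order of the list's median log2 fold change, with the number tested in brackets. Synaptic and adhesion genes stand at the top with 32 of 33 higher and cytosolic ribosomal protein genes at the bottom with 81 of 82 lower. Of the 33 genes, 16 had no UMI in cells and passed the filter through the nuclei alone.

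Of 82 tested genes of cytosolic ribosomal proteins 81 fell, with a median log2 fold change of -3.33, and the sum was 7331 CPM in nuclei and 72818, 72518 and 71816 CPM in the captures. Rpl41 was at 955 CPM in nuclei and at 4187, 4373 and 5032 CPM in cells. Rps29, Rplp1 and Rps15 fell by 2.87, 2.01 and 1.90 on the log2 scale. Ribosomal protein genes are known for near-identical processed copies, among which reads can be split, so the size of these changes is uncertain. Pseudogenes named for ribosomal protein genes that only the nucleus list holds took 6660 UMIs in intermediate nuclei (3173 CPM). Of 75 nuclear genes of oxidative phosphorylation 40 fell and 1, Atp5s, rose, with a sum of 14621 CPM in nuclei and 47949, 48477 and 44491 CPM in cells. Cox8a, Cox6a1, Cox8b and Cox6c, subunits of cytochrome oxidase, fell by 1.79, 1.16, 2.41 and 1.70, though Cox6a1 lay under 2-fold with Malat1 left out of the totals.

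Of 10 heat shock genes 9 fell, among them Hspa8, a constitutive chaperone, at 101 CPM in nuclei and at 453, 542 and 393 CPM in cells. Hspa5, Hsp90ab1 and Hspe1 fell by 1.53, 1.04 and 1.65 on the log2 scale. Of 12 immediate-early genes 5 fell (Fos, Jun, Jund, Klf4 and Zfp36). Jund was at 61.3 CPM and at 313, 326 and 272 CPM, whereas Klf6, Dusp1 and Ier3 had log2 values of -0.90, 0.14 and -0.62 and were not called. Of the immediate-early genes 1 fell with DESeq2 and 2 without capture 2, and with Malat1 left out of the totals 2 rose and 2 fell. The heat shock count was 6 with Malat1 left out of the totals. It was 5 when cells were held to the Malat1 limit of 5% that chose the nuclei.

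Of 17 antioxidant genes 9 fell, among them Gpx4 (653 CPM in nuclei, 1991, 2015 and 1732 in cells), while Gsta4 (1953 CPM), Mt3 and Gpx3 were not called. Of 16 lysosomal genes 5 fell (9 without TMM scaling and 3 with Malat1 left out of the totals). Ctsb, a cathepsin, was at 570 CPM in nuclei and at 2105, 1840 and 1753 CPM in cells, Lamp1 fell by 1.26, and Psap and Cd63 had log2 values of -0.94 and -0.51 and were not called. Of 15 genes of the vacuolar proton pump 5 fell (3 with Malat1 left out of the totals, and 3 with cells held to 5% Malat1) and 1, Atp6v1h, rose (none without TMM scaling), with Atp6v1g1 at 210 CPM and at 858, 923 and 888 CPM. Atp6v0b, Atp6ap2 and Atp6v0a1 were not called, with log2 values of 0.49, -0.70 and 0.56. Of 14 genes of the nuclear envelope and splicing, 12 were not called and 2, Pcna and Tnrc6a, fell, with a median of 0.05. With Malat1 left out of the totals 1 gene of this list fell. Ddx5, Son, Srsf5 and Srrm2 had log2 values between -0.26 and 0.21. Of 4 tested nuclear noncoding RNAs only Xist was called, lower. It had 8 UMIs in nuclei and 238, 1409 and 1414 UMIs in captures 1, 2 and 3. The call was lost under most of the alternatives, among them no TMM scaling and leaving out capture 2 or 3. With Malat1 left out of the totals 1 gene of the list was called higher and none lower. Neat1 was at 1211 CPM in nuclei and at 836, 797 and 761 CPM in cells (0.76 ± 0.15) and was not called, nor were Kcnq1ot1 and Gm26917 (0.10 and -0.04).

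How many barcodes showed a gene was compared with each barcode thinned to 1000 UMIs outside mitochondrial genes. Malat1 was counted in the 1000 and took more of them in nuclei, so the UMIs left for other genes were fewer there. This kept 1177 of the 1274 nuclei and 111, 369 and 357 cells. Fbxl7 was seen in 87.2% of intermediate nuclei (95% exact binomial interval 85.1 to 89.0) and in 0%, 0% and 0.560% of cells, and before thinning in 93.3% of nuclei and in 0.901%, 0.270% and 0.559% of cells. Dlc1 was seen in 94.0% of nuclei and in 31.5%, 31.7% and 30.3% of cells. Prkg1 was seen in 68.5% of nuclei and in 0%, 1.36% and 2.80% of cells. These 3 genes were thus present in most nuclei. In marginal nuclei, where the 3 genes were low but present, the thinned shares were 14.7%, 3.56% and 4.50%.

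Opcml was seen in 71.1% of intermediate nuclei and in 14.4%, 13.6% and 17.1% of cells, with 2.78% of marginal nuclei. Before thinning Opcml was seen in 79.0% of nuclei and in 54.1%, 44.1% and 48.6% of cells, which were sequenced more deeply. Kcnj10 was the reverse, with 49.4% of nuclei and 95.5%, 92.1% and 92.2% of cells, and with 62.5% of nuclei and 100%, 99.2% and 97.8% of cells before thinning. Cd44 was seen in 16.7% of nuclei and in 44.1%, 40.4% and 43.7% of cells. Kcnj13 was level, with 38.1% of nuclei and 36.0%, 39.8% and 33.3% of cells.

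**Figure D4:**
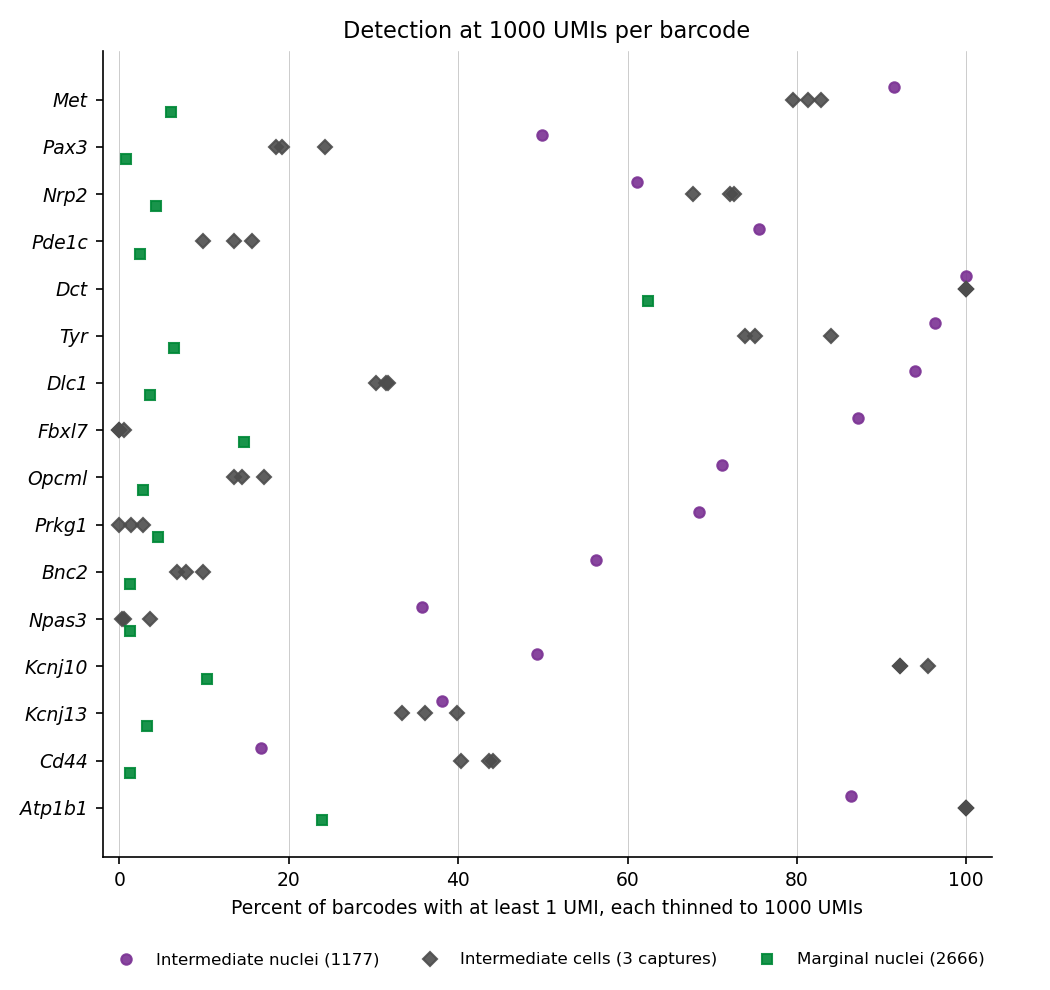
Percent of barcodes with at least 1 UMI of a gene (x axis), after each was thinned to 1000 UMIs, in 1177 intermediate nuclei, in intermediate cells of 3 captures (3 points) and in 2666 marginal nuclei. Nuclei stand above every capture for Dlc1, Fbxl7, Opcml, Prkg1, Bnc2 and Npas3 and below them for Kcnj10, Cd44 and Atp1b1.

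At 1000 UMIs the median intermediate nucleus showed 562 genes, and the median cell 640, 640 and 659 genes in captures 1, 2 and 3. Before thinning the medians, over the genes used for thinning, were 733.5 in nuclei and 2422, 1982 and 1920 in cells. The median of 763 given above for these nuclei was counted over the full gene list of the library. The order turned when Malat1 was left out before thinning, with a median of 752 genes in nuclei and 680, 690 and 697 in cells, though 685 of the 1274 nuclei were then too shallow to be kept.

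The length of a gene on the genome ran with these calls. Whether reads on introns were counted in either kind of library is not given in the sources used here, so span, intronic reads and the differing gene lists cannot be told apart. Genes higher in nuclei had a median span of 77.7 kb in GENCODE (GRCm38), those lower 11.1 kb and those not called 23.8 kb. Under 5 kb, 6.75% of 1186 genes rose and 42.5% fell, whereas over 500 kb 168 of 174 genes (96.6%) rose and none fell. Genes with no UMI in cells passed the filter through the nuclei alone and were all called higher. Over the 7797 genes with at least 50 UMIs in cells, a limit added after seeing the data, 1.30% rose under 5 kb, 59.3% over 100 kb (72.0% without the limit) and 45 of 50 over 500 kb. In all tested genes between these ends the share that rose grew with each class of span, from 10.2% at 5 to 10 kb to 85.3% at 200 to 500 kb. Among coding genes with 2 to 4 kb of exons, 7.41% rose with a span under 20 kb and 73.0% with a span of 100 kb or more, and with 4 to 6 kb of exons the shares were 6.75% and 71.3%. The separating genes of intermediate nuclei were long too, with a median span of 55.5 kb against 29.1 kb over the 10217 genes, and the 112 of them higher in nuclei had a median of 146 kb. Opcml spans 1135 kb of chromosome 9 (27790775 to 28925410), Prkg1 1201 kb of chromosome 19 (30564489 to 31765033), Fbxl7 355 kb of chromosome 15 (26540459 to 26895580) and Bnc2 400 kb of chromosome 4 (84275095 to 84675275). Tyr (68.7 kb on chromosome 7, 87424771 to 87493512) and Dct (39.5 kb on chromosome 14, 118012790 to 118052244) are shorter, and Kcnj10 spans 32.9 kb of chromosome 1 (172341210 to 172374085).

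**Figure D5:**
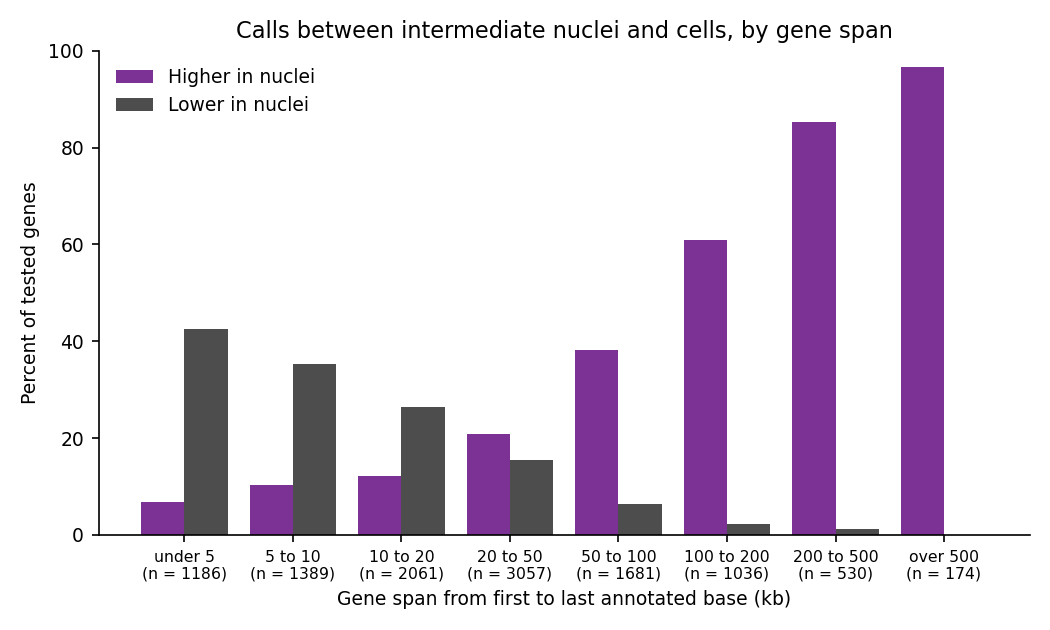
Percent of tested genes (y axis) called higher or lower in intermediate nuclei than in intermediate cells, in 8 classes of gene span (x axis, kb, with the number of genes). The share higher climbs from 6.75% under 5 kb to 96.6% over 500 kb, and the share lower falls from 42.5% to 0.

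By kind of gene, 199 of 264 antisense genes (75.4%) and 125 of 215 lincRNAs (58.1%) rose in nuclei, against 25.2% of 10563 coding genes. These shares rested on genes with few UMIs in cells, since with at least 50 UMIs there 9 of 35 antisense genes (25.7%) and 11 of 56 lincRNAs (19.6%) rose, against 15.3% of coding genes. Of the antisense genes that rose, 168 lay across a tested coding gene, which rose in 74 cases and fell in 13. The 10 genes with the largest fitted changes rested on cells with few or no UMIs, 4 in all for Fbxl7 and none for the others. Gm20388 (1773 UMIs in nuclei), Nkain2, Spag5, Gm37240, Gm28153, Gm26848 and Gm44511 had none in any capture, so Gm20388 was at least 1125-fold and Nkain2 at least 498-fold higher in nuclei. Gm20388 is annotated over 4435 kb and overlaps other genes on its strand, and these 7 genes did not separate intermediate from other nuclei. Altogether 378 tested genes had no UMI in cells and 220 none in nuclei.

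The genes furthest below the cells had no UMI in the intermediate nuclei. They were Cox4i1, Chchd2, Rpl13, Rpl24, Ndufa13, Map1lc3b, Oat, Prnp, Cenpb and Gnb2. Cox4i1, a subunit of cytochrome oxidase, had 5816 UMIs in intermediate cells and was at least 1019-fold lower in nuclei, and Map1lc3b, an autophagosome protein, was at least 296-fold lower. Of 55 genes at 0 in intermediate nuclei and at 50 CPM or more on average in cells, 90.9% overlapped another listed gene on the same strand, against 22.3% of all genes tested, and 46 of the 55 were at 0 in marginal and basal nuclei too. Cox4i1, Rpl13 and Map1lc3b overlap Gm20388 on its strand. How the counting treated overlapping genes is not given in the sources used here, so these zeros cannot be told apart from absence of the RNA.

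Variation among the intermediate nuclei was described by the Fano factor, the variance over the mean of UMIs per nucleus at 1000 UMIs, which is 1 for counting error alone. Over 3114 genes seen in at least 5% of nuclei its median was 1.04, and 32 genes exceeded 2. The 4 hemoglobin genes Hba-a1 (163), Hbb-bs (118), Hba-a2 (27.6) and Hbb-bt (21.2) were highest together with Malat1 (45.2). S100a8, a neutrophil gene, had a Fano factor of 11.7, the ferritin gene Fth1 11.2, Dct 5.96, Gm28153 3.99 and Ebf1, a B cell and stromal factor, 3.86. Genes of other cell types thus made up much of the strongest variation. Of 159 separating genes among the 3114, 7 exceeded 2. Per nucleus, Dct ran from 20 UMIs at the 10th percentile to a median of 38 and 79.7 at the 90th, Tyr had a median of 7 and Dlc1 of 5.

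Nuclei also differed in the mitochondrial share, which the rule did not use. It was under 2% in 715 nuclei, from 2 to under 10% in 365 and at 10% or more in 194. Malat1 was at 320181, 255022 and 152532 CPM over these classes, and ribosomal protein genes were at 4659, 6535 and 12030 CPM. Fth1 was at 3059, 6106 and 12301 CPM and Kcnj10 at 633, 843 and 1369 CPM, so that these RNAs were higher where mitochondrial RNA was. The 4 genes given next, all higher in nuclei than in cells, varied less over the classes than Fth1 and Kcnj10. Dlc1 was at 3818, 3523 and 3489 CPM, Fbxl7 at 3045, 2878 and 2889 CPM and Prkg1 at 1297, 1231 and 1334 CPM, while Opcml was at 1966, 1673 and 1579 CPM. The marginal genes of the rule were at 438, 511 and 619 CPM. Dct was at 26492, 33507 and 24983 CPM and Tyr at 4637, 4714 and 5047 CPM. Malat1, which fell over the classes, was counted in the totals, so trends of the other genes depend in part on it. The median depth was 1421, 1408 and 2380.5 UMIs. Kcnj10 in the class with the most mitochondrial RNA was still below the 3305 to 4009 CPM of intermediate cells, whose median mitochondrial share was higher again.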

How the data were processed

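Single-cell and single-nucleus libraries were made by the authors with the 10x Genomics Chromium system, and reads were aligned to mm10 and counted with Cell Ranger 2.0.0, per the submitters' processing notes. The study's methods name default settings and the mm10 reference of 10x Genomics. The deposited values are raw UMI counts per gene and barcode, without normalization. Whether intronic reads were counted, and whether counting used strand, is not given in the sources used here. The nucleus gene list holds 48816 genes and the cell list 27998, with 27873 shared by Ensembl ID.

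Barcodes were chosen by the marker rule, and UMIs were summed per capture and type. Sums without mitochondrial genes were fitted in edgeR 4.0.16 (TMM, filterByExpr, robust quasi-likelihood fit, R 4.3.3) with Benjamini-Hochberg adjustment. DESeq2 1.42.0 was an alternative. Tested on simulated sums of nuclei and cells (9813 genes), the edgeR fit called 79 of 90 genes with a 4-fold change, 26 of 93 with a 2-fold change and 4 unchanged genes. The simulated nucleus sum took the mean proportions of the cells and the fitted dispersions, with few genes changed. In the data 3012 genes were called higher and 2154 lower, so the simulation cannot show how many calls there are false. Exact Poisson and binomial intervals (95%) came from scipy 1.17.1. Spans and kinds of genes were taken from GENCODE vM21.

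Doublets were kept, and removal by Scrublet in scanpy 1.11.5 (0.8% of barcodes for every 1000) was an alternative. The 3 cell captures are separate suspensions of pooled mice. The nuclei have 1 capture, so differences between types of nuclei carry no test.

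Genes were named by rule: the genes that chose the nuclei, up to 4 genes of each list with the most UMIs in intermediate nuclei, the 12 highest in nuclei over cells among separating genes, the 10 at each end of the comparison with cells, the 12 with the largest ratio to other nuclei and the 10 with the largest Fano factor. At least 100 UMIs were needed in the higher group. Others are said to be chosen after seeing values, or are members of a list that changed. The marker rule, the lists and the tests were chosen with earlier results of these data known. Values of some list members are not reported here.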

Additional observations from a re-analysis of the deposited data

Results flagged for a closer look

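The nucleus gene list holds 20943 genes that the cell list lacks, so no comparison with cells used them. They took 50384 of 2257235 UMIs of intermediate nuclei (2.23%), and 92 of them had at least 100 UMIs. In 4 of these genes, which no comparison used, the level was over 4 times that of marginal nuclei, with at most 5 UMIs in basal nuclei. RP24-229D22.1, annotated antisense to AI429214 on chromosome 8, had 640 UMIs in intermediate nuclei, 29 in marginal and 1 in basal nuclei. Dleu2, a noncoding RNA on chromosome 14, had 332 UMIs, with 161 in marginal and 5 in basal nuclei. RP23-243D10.3, a lincRNA on chromosome 7 that overlaps Tnrc6a, had 230 UMIs, with 21 in marginal and 0 in basal nuclei. Gm43267 on chromosome 5 had 159 UMIs, with 30 in marginal and 0 in basal nuclei. With 1 library these values have no replicate.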

How the results depend on the processing

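The number of intermediate nuclei ran from 937 (marker share of 0.4%) to 1374 (ratio of 2), including 1157 after Scrublet. Genes separating them numbered 502 higher and 638 lower at 2-fold in place of 4-fold, and stayed within 1.5 times of 219 and 205 under the other alternatives run. Genes higher in nuclei than in cells ran from 2853 to 2928 and genes lower from 2127 to 2234 as each capture was left out. Under the other alternatives for this comparison counts ran from 2161 (DESeq2) to 3922 (no filter) higher and from 1663 (Malat1 left out of totals) to 2578 (no TMM scaling) lower, all within 1.5 times. Of genes over 100 kb, 72.0% were higher in nuclei, 62.7% without the filter on low counts and 59.3% of those with at least 50 UMIs in cells. Median genes per nucleus were 307 at 500 UMIs and 752 with Malat1 left out, and genes with a Fano factor over 2 numbered 12 at 500 UMIs. Over refits of the named genes the call was kept in 2082 cases, gained in 21 and lost in 5, with no reversal. Without capture 3 the hemoglobin genes and S100a8 were called higher in nuclei, with log2 values from 4.87 to 6.36. The alternatives on Malat1 in the totals, in cells and before thinning, on hemoglobin and mitochondrial share, and on UMIs in cells, were added after seeing the data. No paired analysis was possible because no label links a cell capture with the nucleus capture. In the simulated sums 26 of 93 genes with a 2-fold change were called, and the part of depth in this was not tested. The 92 basal nuclei limit ratios against that type.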

Other observations

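Of the genes that only the nucleus list holds, the most abundant outside mitochondrial RNA in intermediate nuclei was Mir99ahg, the host transcript of miR-99a, let-7c and miR-125b-2, with 2937 UMIs. Its level of 1399 CPM was close to the 1608 CPM of marginal and 1714 CPM of basal nuclei. 2610203C20Rik, whose span holds the genes of miR-100, let-7a-2 and miR-125b-1, had 925 UMIs, or 441 CPM, against 174 in marginal and 883 in basal nuclei. Of the 92 genes with at least 100 UMIs, 58 were pseudogenes, with 17716 UMIs together.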
